A study of Homo sapiens with 11 samples.

Results

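The microRNAs miR-146a-5p, miR-146b-5p, miR-146b-3p and miR-155-5p were followed across 6 human tumor cell lines. They were chosen by name as miRNAs linked to NF-kB signaling, by a rule that uses no measured value but with earlier results of these data known, and are 4 of the 2588 mature miRNAs listed in the small RNA-seq tables. All 4 had a row in each table, and all 4 reached a mean of 10 CPM (reads per 1000000 miRNA reads) in at least 1 line, the minimum for testing. hsa-miR-146b-3p reached it in HepG2 only.

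The libraries came from parental cells without any treatment, grown with 10% fetal bovine serum. There were 2 libraries each of A549 (lung adenocarcinoma), ES2 (ovarian clear cell carcinoma), MV3 (melanoma), BE(2)C (neuroblastoma) and HepG2 (hepatoblastoma), and 1 of PANC1 (pancreatic carcinoma), which makes 11. A NEXTflex kit and an input of 50 ng RNA were used for A549, ES2, MV3 and PANC1, whereas Novogene made the BE(2)C and HepG2 libraries. According to the methods of the study, sequencing site, instrument and read length followed the same split, and BE(2)C was grown in a different medium. Cell line, library preparation and sequencing can therefore not be told apart in any comparison between these sets of 4 and 2 lines. Cells were harvested after 48 h, but for BE(2)C the protocol gives 24 h and the sample characteristics give 48 h. The libraries of a line are biological replicates according to the methods of the study, which do not describe how the cultures were separated, and p-values rest on the spread between them.

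NF-kB is a family of transcription factors that is released when cells sense bacterial products or inflammatory cytokines. The miR-146 genes are activated downstream of it, and miR-146a represses the adaptors IRAK1 and TRAF6, which carry the signal from Toll-like and interleukin-1 receptors to NF-kB, so that it is known as a brake in a negative feedback loop. miR-155 is cut from the non-coding transcript MIR155HG, is induced in activated macrophages and lymphocytes, and represses SOCS1 and the phosphatase SHIP1, which both restrain inflammatory signaling. Both miRNAs are best known from immune cells and are also found in many tumors.

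The mature sequences are shown because the miR-146 members share a seed, the stretch that pairs with target mRNAs, while miR-155-5p and the 3p arm of miR-146b have seeds of their own. Sequences are given 5′ to 3′ from RefSeq (GRCh38.p14), with the seed (bases 2 to 8) in capitals. All 4 names matched the RefSeq table, as did 2281 of the 2588 names.
hsa-miR-146a-5p: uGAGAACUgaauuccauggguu
hsa-miR-146b-5p: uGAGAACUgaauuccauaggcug
hsa-miR-146b-3p: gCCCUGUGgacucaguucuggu
hsa-miR-155-5p: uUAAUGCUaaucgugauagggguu

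miR-146a-5p has 22 bases and miR-146b-5p has 23. Over the 22 positions compared, 20 were identical, including the first 17. The substitutions from miR-146a-5p to miR-146b-5p were G18A and U21C, with positions counted from 1 at the 5′ end. A read that ended before position 18 would match both, and how the authors' counting treated such reads is not given in the sources used here. Their seed GAGAACU was shared with 1 further listed miRNA, miR-7153-5p, which had 0 reads in all 11 libraries. No other matched name had the seed UAAUGCU of miR-155-5p or CCCUGUG of miR-146b-3p.

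The members come from 3 hairpins on 3 chromosomes (GENCODE annotation on GRCh38, the build hg38 used by the authors). MIR146A lies at chr5:160485352-160485450 on the plus strand, within exon 2 of the long non-coding RNA gene MIR3142HG. MIR146B lies at chr10:102436512-102436584 on the plus strand, outside any annotated host gene, and its nearest gene was the protein-coding CUEDC2 at a distance of 3928 bases. MIR155 lies at chr21:25573980-25574044 on the plus strand, in an exon of its host transcript MIR155HG.

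Between 1173902 and 12137452 reads per library were assigned to miRNAs (median 2670030), so that the floor of 3 reads that a count of 0 allows ranged from 0.247 to 2.56 CPM. Intervals and floors cover counting error only. A single miRNA, miR-148a-3p, took 752841 and 725599 CPM in HepG2, which lowers the CPM of all other miRNAs there. TMM (trimmed mean of M-values) factors were 0.166 and 0.217 for HepG2 against 1.02 to 1.87 for the other libraries. The median log2 difference of all tested miRNAs between another line and HepG2 was between 1.02 and 2.79 on CPM, and between 0 and 0.31 after TMM scaling. Among the other pairs of lines it ran from -1.38 to 0 on CPM and from -0.91 to 0.03 with TMM. The BE(2)C libraries stood farther apart than other replicates, with a chi-square per degree of freedom of 849 against 8.53 to 59.2. Replicate 1 of BE(2)C held 823 CPM of the hepatocyte miRNA miR-122-5p against 5.96 CPM in replicate 2, but without this library each member contrast with BE(2)C kept its side of the threshold. The sign changed in 2 of these contrasts, A549 minus BE(2)C for miR-155-5p and ES2 minus BE(2)C for miR-146b-3p, which were not past the threshold with or without it. The hepatocyte list was highest in HepG2 (742055 to 768676 CPM), nearly all of it miR-148a-3p, while the defining miR-122-5p had 64.0 and 50.01 CPM there. The neuron list was highest in BE(2)C (88435 to 107914 CPM). The epithelial list summed to 977 to 1024 CPM in A549, 133 CPM in PANC1 and 1434 to 1496 CPM in HepG2. In MV3, 3 of 4 melanocyte markers had 0 reads, and the summed list was 1.29 to 1.70 CPM. In PANC1 all 3 acinar markers had 0 reads.

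All 4 members differed across the 6 lines in the moderated F test of limma on log2(CPM + 1). This held for 99.3% of all tested miRNAs (542 of 546), so that a difference among the lines was the rule for any miRNA. miR-146b-3p was tested only because of its level in HepG2, so its result is not separate from that choice. The adjusted p was 6.64e-08 for miR-155-5p, 3.66e-07 for miR-146a-5p, 4.77e-07 for miR-146b-5p and 0.0066 for miR-146b-3p. The last rose to 0.0507 without HepG2 replicate 2. Within the 4 NEXTflex lines, where 85.4% of tested miRNAs differed (387 of 453), 3 members could be tested and all 3 differed, with adjusted p of 1.62e-05 for miR-155-5p, 7.31e-05 for miR-146a-5p and 0.0026 for miR-146b-5p. In bulk libraries, a miRNA made by fewer cells and one made at a lower level by each cell cannot be told apart.

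**Figure D1:**
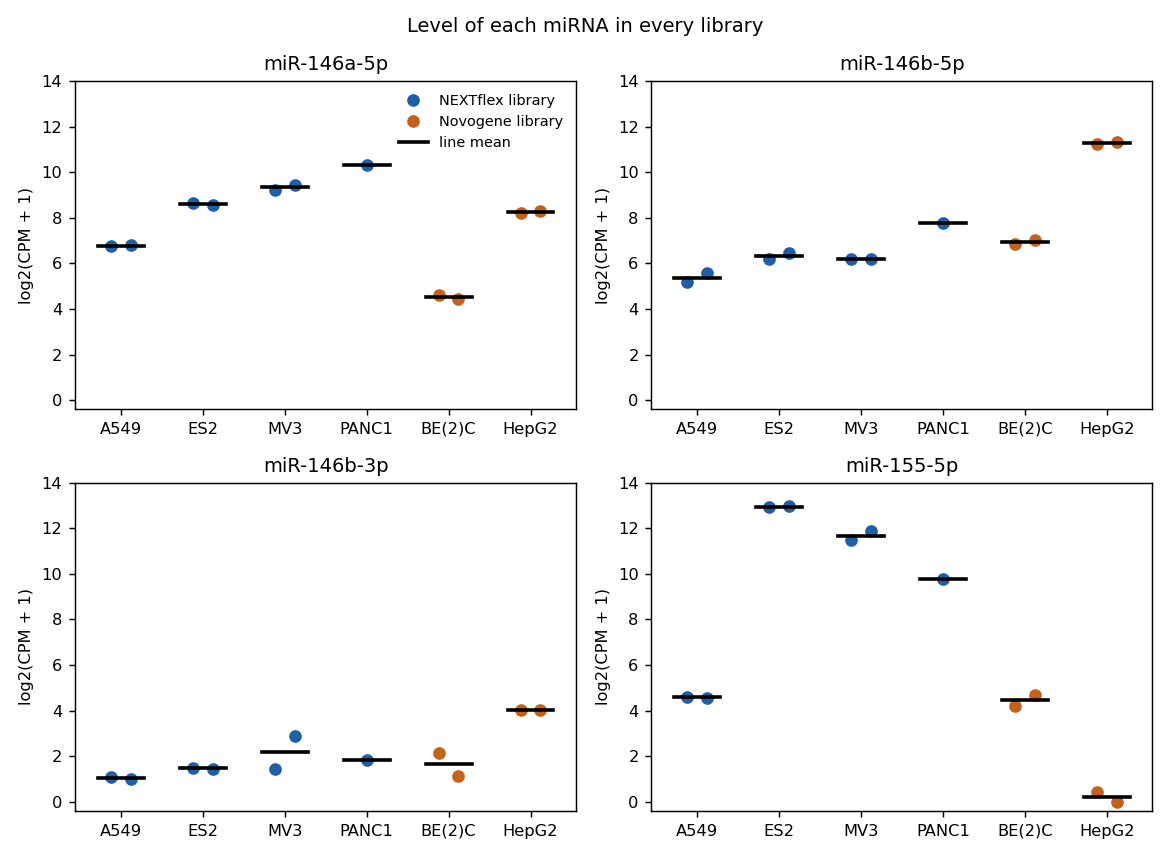
Level of each miRNA in every library as log2(CPM + 1). Points are libraries, colored by library preparation, and bars are the means of the log2 values per line (PANC1 has 1 library). miR-155-5p spans the whole axis, from ES2 near the top to HepG2 at 0, whereas miR-146b-5p stands out in HepG2 and miR-146a-5p is lowest in BE(2)C.

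miR-155-5p was high in ES2, MV3 and PANC1, low in A549 and BE(2)C, and nearly undetected in HepG2. The ES2 libraries held 7812 and 8043 CPM, and those of MV3 held 2832 and 3789 CPM. The PANC1 library held 864 CPM. These 3 lines did not overlap with each other or with any other line. A549 followed with 23.2 and 22.8 CPM, and BE(2)C with 17.7 and 24.8 CPM. HepG2 had 0.337 CPM, from 4 reads, in replicate 1 and 0 reads in replicate 2. These were the deepest libraries in total reads, but miR-148a-3p took 75.3% and 72.6% of those reads. The depth left for other miRNAs was therefore much lower. With miR-21-5p and miR-148a-3p left out of the total, HepG2 replicate 1 had a value of 4.18, still below the libraries of every other line. Within a library, miR-155-5p was the 18th most abundant miRNA in both ES2 libraries, 41st and 36th in MV3, 75th in PANC1, and 255th and 251st in A549.

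The order of lines for miR-155-5p was ES2, MV3, PANC1, A549, BE(2)C and HepG2, on CPM and under each of 3 other scalings. ES2 exceeded MV3 by 1.27 ± 0.25 (log2 difference ± SE, adjusted p = 0.0060), and by 1.17 when the 2 most dominant miRNAs, miR-21-5p and miR-148a-3p, were left out of the total, where the adjusted p was 0.264. MV3 exceeded PANC1 by 1.92 ± 0.30 (adjusted p = 0.0012), and by 1.90 with that total, again not past the threshold (adjusted p = 0.104). PANC1 exceeded A549 by 5.17 ± 0.30 (adjusted p = 1.29e-05), or 37.5 times as a ratio of mean CPM. A549 and BE(2)C overlapped, and their difference did not pass the threshold (0.13 ± 0.25, adjusted p = 0.65). DESeq2, with its own size factors, gave 0.80 for this pair, higher in A549 (adjusted p = 0.0053). BE(2)C exceeded HepG2 by 4.25 ± 0.25 (adjusted p = 1.35e-06), a comparison within the Novogene libraries. As a ratio of CPM to the pooled HepG2 value this step was 127-fold (counting interval 49.8 to 468), which the pseudocount understates. This fold depended on the scaling and was smaller under 2 others. With TMM scaling the line means were 13.8 in BE(2)C and 1.01 in HepG2. With the total without miR-21-5p and miR-148a-3p they were 21.6 and 2.09.

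Over both HepG2 libraries, 4 reads among 24018416 gave 0.167 CPM with an exact 95% Poisson interval of 0.0454 to 0.426 CPM. Against this pooled value the mean of ES2 was 47601 times higher, with a counting interval of 18591 to 174703, and the mean of A549 138 times higher (54.0 to 507). The interval covers the HepG2 count only and does not include the scaling of the libraries. After TMM scaling the line means were 6001 for ES2, 21.7 for A549 and 1.01 for HepG2. miR-155-5p was thus still lowest in HepG2, but by smaller ratios than on CPM.

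The passenger strand miR-155-3p was near the limit of detection even where miR-155-5p was abundant. It had 8 reads in ES2 replicate 2, 2 and 9 reads in the MV3 libraries, and 0 in the other 8 libraries. In ES2 replicate 2 it made up 0.0433% of the reads of both arms (95% Wilson interval 0.0220 to 0.0855%). In ES2 replicate 1 it had 0 of 12992 reads, which allows a share of up to 0.0231%. In PANC1 it had 0 of 8419, which allows up to 0.0356%. Nearly all reads of this hairpin thus came from the 5p arm in each library deep enough to tell.

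miR-146a-5p, the feedback regulator encoded in MIR3142HG, was highest in PANC1 on CPM and lowest in BE(2)C. PANC1 held 1273 CPM, and the MV3 libraries held 599 and 703 CPM. ES2 had 397 and 380 CPM, and HepG2 had 294 and 311 CPM. Libraries of these 4 lines did not overlap. A549 was lower, with 107 and 111 CPM, and BE(2)C had 23.5 and 20.9 CPM. The mean of PANC1 was 57.3 times that of BE(2)C. In rank, miR-146a-5p was 64th in PANC1, 44th and 45th in HepG2, and 323rd and 341st in BE(2)C.

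PANC1 exceeded MV3 in miR-146a-5p by 0.97 ± 0.19 (log2, adjusted p = 0.0041). MV3 exceeded ES2 by 0.74 ± 0.16 (adjusted p = 0.0094), but the difference was 0.25 with TMM scaling (adjusted p = 0.439) and did not pass the threshold without MV3 replicate 2 (0.62, adjusted p = 0.0707). ES2 and HepG2 did not differ (0.36 ± 0.16, adjusted p = 0.0873), but without BE(2)C replicate 1 or replicate 2 in the fit the adjusted p was 0.0185 and 0.0194. HepG2 exceeded A549 by 1.46 ± 0.16 (adjusted p = 7.73e-05). A549 exceeded BE(2)C by 2.24 ± 0.16 (adjusted p = 7.04e-06), and within the Novogene libraries HepG2 exceeded BE(2)C by 3.71 ± 0.16 (adjusted p = 3.43e-07).

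The place of HepG2 in this order depended on the scaling of the libraries. On CPM it ranked below PANC1, MV3 and ES2. With TMM scaling it was the highest line, with a mean of 1601 against 722 for PANC1, 352 for MV3, 294 for ES2, 103 for A549 and 14.6 for BE(2)C. PANC1 minus HepG2 was 2.07 on CPM (adjusted p = 3.52e-05) and -1.14 with TMM (adjusted p = 0.0028), past the threshold in opposite directions. Relative to the median of all tested miRNAs, PANC1 minus HepG2 was -0.51, MV3 minus HepG2 was -0.82 and ES2 minus HepG2 was -0.66, although each was positive on CPM. The order of the other 5 lines was the same under CPM, TMM, the total without miR-21-5p and miR-148a-3p, and the deposited values.

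**Figure D2:**
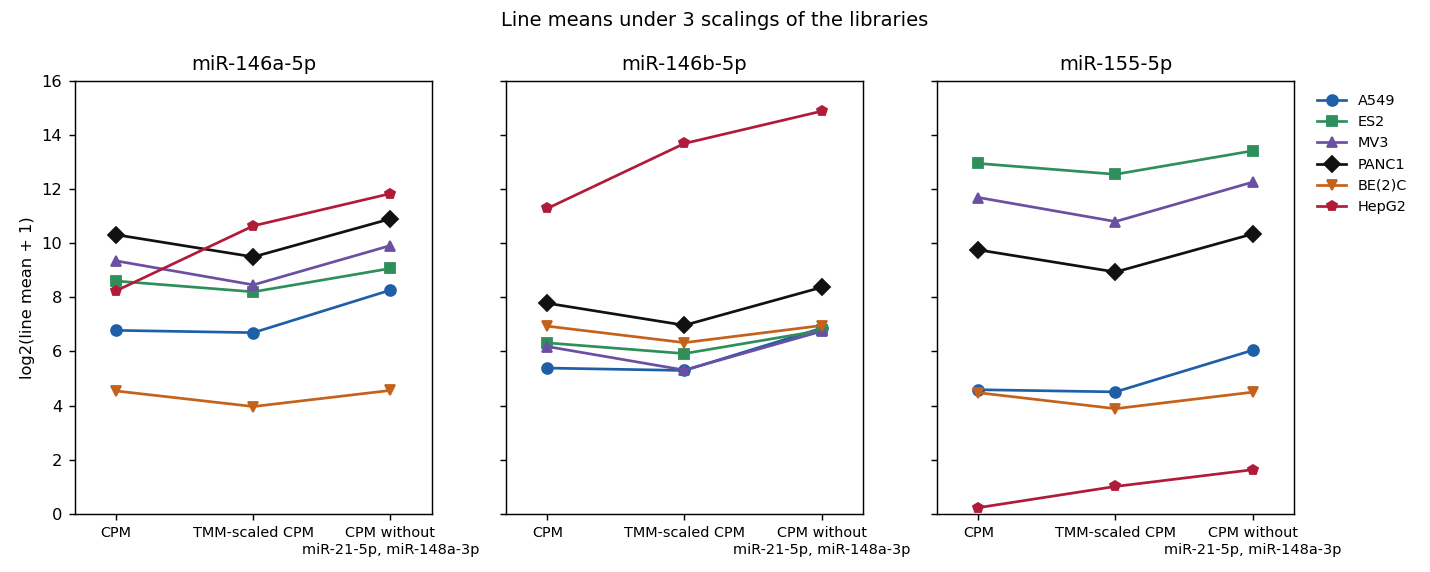
Line means of miR-146a-5p, miR-146b-5p and miR-155-5p as log2(mean + 1) under 3 scalings, namely CPM, TMM-scaled CPM and CPM of a total without miR-21-5p and miR-148a-3p. Each colored line is a cell line. For miR-146a-5p the HepG2 line moves from below PANC1, MV3 and ES2 on CPM to the top under the other scalings, whereas it is highest for miR-146b-5p and lowest for miR-155-5p in each of them.

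The miRNAs that share this host transcript or hairpin gave almost no reads. The 3p arm, miR-146a-3p, had at most 2 reads in a library and 0 reads in PANC1, where 12411 reads of the 5p arm allow a share of up to 0.0242%. miR-3142, which is encoded in an intron of MIR3142HG, had 0 reads in all 11 libraries.

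miR-146b-5p, which has the same seed, was by far highest in HepG2. The HepG2 libraries held 2424 and 2576 CPM, and this miRNA ranked 9th and 8th there. PANC1 had 219 CPM, followed by BE(2)C with 114 and 129 CPM. ES2 had 72.2 and 85.4 CPM. MV3 had 71.6 CPM in both libraries, and A549 had 35.6 and 46.1 CPM. Outside HepG2 the libraries thus spanned 35.6 to 219 CPM, and the mean of HepG2 was 61.2 times that of A549, the lowest line.

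HepG2 exceeded PANC1 in miR-146b-5p by 3.50 ± 0.24 (log2, adjusted p = 5.57e-06) and, within the Novogene libraries, BE(2)C by 4.35 ± 0.19 (adjusted p = 3.57e-07). Both differences were larger with TMM scaling, at 6.71 and 7.36. PANC1 exceeded BE(2)C by 0.85 ± 0.24 (adjusted p = 0.0126). BE(2)C exceeded ES2 by 0.62 ± 0.19 (adjusted p = 0.0182), a difference that missed the threshold with TMM (adjusted p = 0.0980) and without ES2 replicate 1 (adjusted p = 0.0946). The difference between ES2 and MV3 did not pass the threshold (0.13 ± 0.19, adjusted p = 0.685). MV3 exceeded A549 by 0.81 ± 0.19 (adjusted p = 0.0085), but the libraries overlapped with TMM scaling (0.02, adjusted p = 1) and the adjusted p was 0.0506 without A549 replicate 1. HepG2, PANC1 and BE(2)C headed the order in this sequence under all 4 scalings, but with the total without miR-21-5p and miR-148a-3p BE(2)C was not separable from ES2 (0.18, adjusted p = 0.395), MV3 (0.21, adjusted p = 0.325) or A549 (0.10, adjusted p = 0.636). The order below PANC1 therefore depended on the scaling.

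miR-146b-3p, the other arm of the same hairpin, was a minor product. HepG2 had 181 and 187 reads, or 15.2 and 15.4 CPM. The other libraries held between 2 and 26 reads, or 0.971 to 6.45 CPM. The highest of these was MV3 replicate 2 with 10 reads, against 2 reads in MV3 replicate 1. HepG2 exceeded MV3 by 1.86 ± 0.51 (log2, adjusted p = 0.0119), but the adjusted p was 0.0586 without MV3 replicate 1, 0.0513 without HepG2 replicate 1 and 0.0509 without HepG2 replicate 2. It also exceeded A549 by 2.996 ± 0.51, ES2 by 2.56 ± 0.51, BE(2)C by 2.37 ± 0.51 and PANC1 by 2.19 ± 0.63 (adjusted p of 0.0011, 0.0028, 0.0030 and 0.0133). miR-146b-3p was tested only because HepG2 reached the minimum of 10 CPM, so these p-values lend no separate support to its high level there. The other 10 pairs of lines were not distinguishable at this depth. Without MV3 replicate 1, MV3 exceeded A549 by 1.87 (adjusted p = 0.0161) and BE(2)C by 1.24 (adjusted p = 0.0396).

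The 3p arm made up a small share of the miR-146b reads in every library. The share was 0.625% (95% Wilson interval 0.540 to 0.722%) and 0.594% (0.515 to 0.686%) in HepG2, and 1.16% (0.784 to 1.70%) in PANC1. In BE(2)C it was 2.95% (2.02 to 4.29%) and 0.937% (0.475 to 1.84%), so that the replicates did not overlap. In the 6 remaining libraries it lay between 2.00% and 8.26%, from 2 to 10 reads each. The HepG2 intervals lay below those of all NEXTflex libraries except A549 replicate 2, whose interval reached from 0.567 to 7.21%, and MV3 replicate 1 (0.640 to 8.09%).

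A share within a library does not depend on how libraries are scaled. Of the reads of miR-146a-5p and miR-146b-5p together, miR-146a-5p took most in the 4 NEXTflex lines and a minority in the Novogene lines. In A549 it was 75.0% (95% Wilson interval 70.4 to 79.1%) and 70.7% (65.5 to 75.4%). In ES2 it was 84.6% (81.9 to 87.0%) and 81.6% (79.2 to 83.8%). In MV3 it was 89.3% (87.0 to 91.3%) and 90.8% (89.0 to 92.3%). These 3 lines did not overlap in their shares, and PANC1, with 85.3% (84.7 to 85.9%), lay between ES2 and MV3. In BE(2)C the share was 17.2% (14.99 to 19.59%) and 13.9% (11.9 to 16.2%). In HepG2 it was 10.8% in both libraries (10.5 to 11.1%). The split between 70.7% or more and 17.2% or less followed the preparation and sequencing without exception. Their part in the result cannot be told apart from that of the lines. Within preparations the line means differed from 72.8% ± 3.06 (SD, n = 2) in A549 to 90.0% ± 1.01 (SD, n = 2) in MV3, and from 15.6% ± 2.28 (SD, n = 2) in BE(2)C to 10.8% ± 0.0135 (SD, n = 2) in HepG2.

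**Figure D3:**
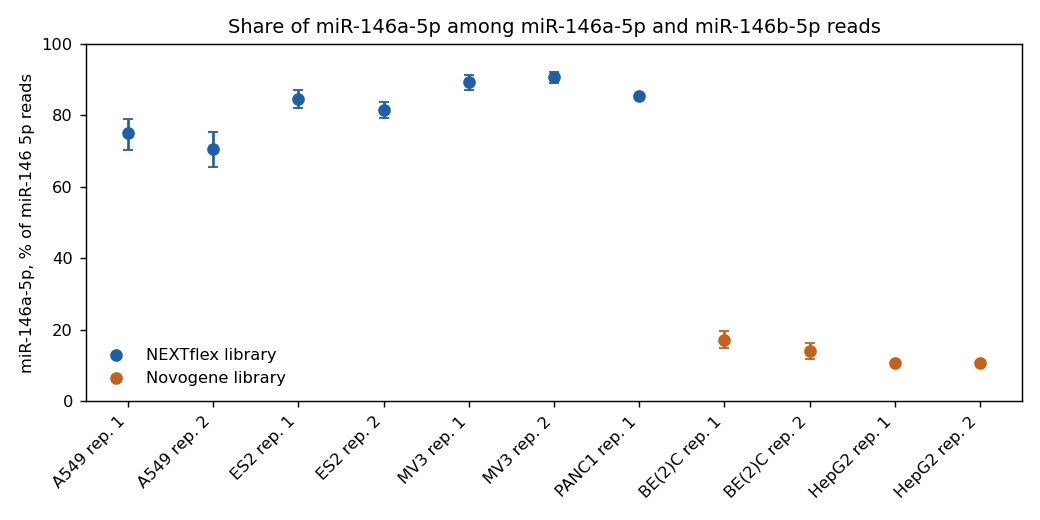
Share of miR-146a-5p among the reads of miR-146a-5p and miR-146b-5p, in percent, for each of the 11 libraries. Points are libraries, colored by preparation, and bars are 95% Wilson intervals, which cover counting error only. The 7 NEXTflex libraries lie between 70.7% and 90.8%, and the 4 Novogene libraries between 10.8% and 17.2%.

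As both 5p members carry the same seed, their summed level was also considered. It was 2803 ± 120 CPM in HepG2, 1493 in PANC1, 722 ± 73.6 in MV3, 467 ± 3.29 in ES2, 150 ± 10.5 in A549 and 144 ± 9.35 in BE(2)C (mean ± SD, n = 2, with 1 library for PANC1). A549 and BE(2)C had nearly the same summed level on CPM, where miR-146a-5p was 4.90 times higher and miR-146b-5p 2.97 times lower in A549. With TMM scaling the sums were 141 and 93.8, and with the total without miR-21-5p and miR-148a-3p they were 423 and 146, so that the sums were alike on CPM and the deposited values but not under these scalings. Relative to this sum, miR-155-5p was 17.0 ± 0.470 times as abundant in ES2 and 4.56 ± 0.471 times in MV3. The ratio was 0.579 in PANC1, 0.154 ± 0.0128 in A549 and 0.147 ± 0.0253 in BE(2)C. ES2 and MV3 were therefore the lines in which reads of miR-155-5p outnumbered those of the miR-146 5p arms, and HepG2 was the line with most miR-146 and least miR-155 on CPM. Reads of different miRNAs are ligated and amplified with different efficiency, so that a ratio above 1 in reads need not be one in molecules.

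Counting the members over the 15 pairs of lines, miR-155-5p, miR-146a-5p and miR-146b-5p each differed in 14 pairs and miR-146b-3p in 5, all against HepG2. The pair without a difference was A549 with BE(2)C for miR-155-5p, ES2 with HepG2 for miR-146a-5p and ES2 with MV3 for miR-146b-5p. These counts are on CPM. With TMM scaling miR-146a-5p was higher in HepG2 than in ES2, MV3 and PANC1, past the threshold in each pair. Within the NEXTflex lines, 3 of 4 members differed between A549 and ES2 (50.5% of all 546 tested miRNAs), A549 and MV3 (57.3%), A549 and PANC1 (43.8%), ES2 and PANC1 (57.3%), and MV3 and PANC1 (53.1%). Between ES2 and MV3 it was 2 of 4, against 32.8% of all. Within the Novogene lines, all 4 differed between BE(2)C and HepG2, against 83% of all. Across preparations 2 of 4 differed between A549 and BE(2)C (76.7%) and 3 of 4 between ES2 and BE(2)C (77.5%), MV3 and BE(2)C (78%), PANC1 and BE(2)C (71.2%), and ES2 and HepG2 (60.8%). All 4 differed from HepG2 in A549 (67.6%), MV3 (69.6%) and PANC1 (75.1%). The share of members was below the background between A549 and BE(2)C and close to it in the other pairs with BE(2)C except HepG2. It was above the background in the remaining pairs. Counts against HepG2 include miR-146b-3p, which was tested only because of its level there. With 4 members, chosen with earlier results of these data known, the counts add nothing to the single values. Contrasts that include PANC1 rest on its lone library, which is assumed to vary like those of the other lines.

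Over the 6 line means of log2(CPM + 1), the arms of miR-146b had a Pearson r of 0.94 and a Spearman rho of 0.66, with HepG2 highest for both. For miR-146a-5p and miR-146b-5p, r was 0.17, and 0.58 with TMM. The Pearson r of miR-155-5p was 0.52 with miR-146a-5p and -0.60 with miR-146b-5p, and 0.10 and -0.65 with TMM. The 6 points share the preparations and the composition of HepG2, and these values are descriptions only. By Pearson r, the miRNAs most like miR-155-5p in their pattern were miR-29b-3p (r = 0.97, 0.72 with TMM), miR-29a-5p (r = 0.97) and miR-1304-5p (r = 0.96). Those most like miR-146a-5p were miR-28-3p (r = 0.93), miR-548e-3p (r = 0.92) and miR-1304-3p (r = 0.91). For miR-146b-5p they were miR-148a-5p (r = 0.98), miR-578 (r = 0.93) and miR-6715a-3p (r = 0.92), which all had their highest mean in HepG2, at 149, 36.5 and 18.5 CPM. In the other lines their means were at most 5.85, 0.209 and 0.301 CPM, so that they were tested only through HepG2. Their r values therefore rest largely on that line. The miRNAs most like miR-146b-3p were miR-578 (r = 0.93), miR-455-5p (r = 0.93) and miR-6715a-3p (r = 0.92), with the same limit for miR-578 and miR-6715a-3p.

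Other miRNAs tied to NF-kB, as its products or as regulators of its components, were summarized as a list of 21. Of these, 18 were tested and all 18 differed across the 6 lines (background 99.3%), and 18 of 18 also did within the NEXTflex lines (background 85.4%). miR-147b, miR-212-3p and miR-223-3p, the last a myeloid miRNA, stayed below the minimum for testing. The median range between the highest and lowest line was 7.53 on the log2 scale for the list against 5.13 for all tested miRNAs, but 2.50 against 3.12 within the NEXTflex lines. miR-155-5p, with a range of 12.74, lay among the widest of them, next to miR-222-3p (13.53) and miR-221-3p (12.63), which repress the cell cycle inhibitor p27. The narrowest ranges among the 18 tested were 4.39 for miR-187-3p and 4.41 for miR-301a-3p. The ranges of miR-146a-5p and miR-146b-5p were 5.78 and 5.91, below the median of the list but above that of all tested miRNAs. Within the NEXTflex lines they were 3.54, above both medians there, and 2.41, below both.

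The cluster of miR-221 and miR-222 had its highest level in the same line as miR-155-5p. Mean CPM of miR-222-3p was 56476 in ES2, 45066 in MV3, 7784 in PANC1, 8733 in A549, 276 in HepG2 and 5.27 in BE(2)C. miR-21-5p, an abundant miRNA that represses PDCD4, was highest in A549 (646036 CPM) and lowest in BE(2)C (12604 CPM), where miR-146a-5p was lowest too. miR-199a-5p, a regulator of the kinase IKK-beta, was high in BE(2)C (2062 CPM), MV3 (1322) and ES2 (669) but at 0.308 in PANC1, where miR-146a-5p had its highest CPM. miR-9-5p, which represses NFKB1 and is abundant in neural cells, was highest in BE(2)C (16715 CPM). Of the 18 tested miRNAs, 11 had their lowest mean in HepG2 on CPM, as did miR-155-5p, and none had its highest there, in contrast to miR-146b-5p. The scaling of HepG2 enters these counts as described above, with a median log2 difference of all tested miRNAs between another line and HepG2 of 1.02 to 2.79 on CPM. How many of all tested miRNAs were lowest or highest in HepG2 was not counted, so the counts are not read as a trait of the list.

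**Figure D4:**
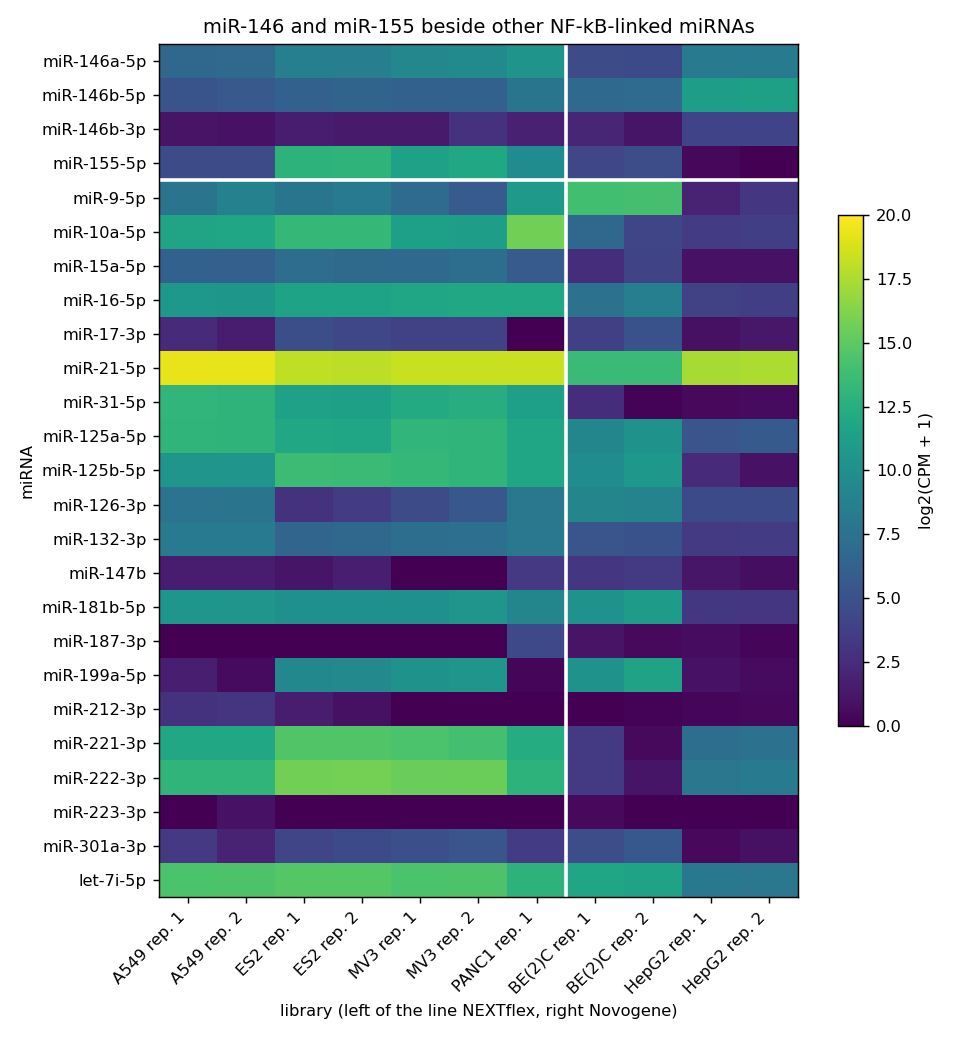
Heat map of log2(CPM + 1) for the 4 members (above the white line) and 21 other NF-kB-linked miRNAs (below it) in 11 libraries, NEXTflex to the left and Novogene to the right of the vertical line. The rows of miR-155-5p and miR-222-3p are brightest in ES2 and MV3, whereas the row of miR-146b-5p is brightest in the HepG2 libraries.

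Since miR-146 and miR-155 are abundant in leukocytes, 7 blood cell miRNAs were examined beside them. In ES2, the line with most miR-155-5p, the leukocyte miRNAs miR-142-3p (326 and 286 CPM) and miR-142-5p (153 and 140 CPM) were detected, whereas miR-223-3p and miR-144-3p had 0 reads and the list summed to 440 to 486 CPM. In MV3, where miR-155-5p was also high, 6 of 7 had 0 reads, miR-142-3p and miR-142-5p among them, and the sum of 131 to 136 CPM came from miR-486-5p alone. In PANC1 the sum was 1356 CPM, of which miR-486-5p gave 1356 CPM, and 4 of 7 were at 0. A549 summed to 188 to 218 CPM with 4 of 7 at 0, BE(2)C to 373 to 717 CPM with miR-144-3p at 0, and HepG2 to 10.2 to 10.6 CPM with miR-223-3p and miR-144-3p at 0. The part of these miRNAs in the level of miR-155-5p in ES2 was not tested.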

How the data were processed

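Small RNA-seq had been performed in 11 libraries of 6 cell lines, grouped by their cell line label. The authors deposited 1 table per line. For PANC1 the deposited values were CPM, and for the other lines the authors deposited a scaled signal, which is CPM divided by a factor set within each table. The labels name cutadapt 1.14, Bowtie2 2.3.2, SAMtools 1.5, featureCounts 1.5.3 and edgeR 3.30.3 without their roles. The design written for this work had assumed CPM throughout. All nonzero values (100% in each library, tolerance 0.02 reads) were whole multiples of the value of 1 read, so that reads were recovered and CPM recomputed per library, because the tables had been normalized separately.

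Differences were tested with limma (version 3.58.1, R 4.3.3) on log2 of CPM with a pseudocount of 1, for each mature miRNA whose mean reached 10 CPM in any line. The model held the cell line alone, eBayes was run with a trend, contrasts were two-sided, and p-values were adjusted by Benjamini-Hochberg over all tested miRNAs at a threshold of 0.05. The scale understates changes of weakly detected miRNAs. Contrasts were tested in 1 fit of all libraries. The fits were tested on simulated data. Shares carry 95% Wilson intervals and low counts exact Poisson intervals, with a floor of 3 reads. Reads range from 1173902 to 12137452 per library, so that low counts are least precise in the shallowest.

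The miRNAs named were the 4 members, their partner arms and miR-3142, a list of 21 NF-kB-linked miRNAs, cell type markers, and the 3 miRNAs most correlated with each member. Members and lists were chosen with earlier results of these data known. Alternatives were TMM factors, a total without miR-21-5p and miR-148a-3p, the deposited values, a pseudocount of 5, no filter or one at 1 CPM, edgeR 4.0.16 and DESeq2 1.42.0 on the recovered reads, no trend, a replicate block, a fit within the preparation, and leaving out each library.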

Additional observations from a re-analysis of the deposited data

How the results depend on the processing

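The number of miRNAs that differed across the 6 lines was 542 in the analysis as reported, 837 without a filter on low values, and 535 with a replicate block. It was 517 to 544 when each library was left out in turn. Within the NEXTflex lines it was 387, 363 with the block, and 333 to 349 with 1 library left out. The count of 837 comes from a test of more miRNAs. Without the filter, contrasts with BE(2)C called 645 (A549, 419 as reported), 653 (ES2, 423), 656 (MV3, 426), 596 (PANC1, 389) and 691 (HepG2, 453). The adjusted p of miR-146b-3p across the 6 lines ran from 0.0017 to 0.0507 with 1 library left out, the highest without HepG2 replicate 2.

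Of 1262 values of a member in a pair of lines under an alternative, 1217 kept their direction and their side of the threshold, 17 were no longer past it, 6 were newly past it and 22 reversed. For miR-146a-5p, ES2 minus HepG2 was -2.43 with TMM, -2.77 without miR-21-5p and miR-148a-3p in the total and -2.79 with DESeq2. MV3 minus HepG2 was -2.18, -1.92 and -2.47, and PANC1 minus HepG2 was -1.14, -0.93 and -1.22 in the same order. All 9 were past the threshold. For miR-146b-5p, A549 minus ES2 was 0.077 and A549 minus MV3 was 0.11 with that total, and A549 minus MV3 was 0.26 with DESeq2, none past it. DESeq2 changes the model as well as the scaling, and the cause was not tested. The other 10 were past the threshold in neither case. For miR-146b-3p, A549 minus ES2, A549 minus BE(2)C and ES2 minus BE(2)C were 0.20, 0.31 and 0.12 with that total, and PANC1 minus BE(2)C was -0.095 with DESeq2. With 1 library left out, A549 minus BE(2)C for miR-155-5p ran from -0.10 (without BE(2)C replicate 1) to 0.36. For miR-146b-3p, ES2 minus MV3 ran from -1.43 to 0.037, MV3 minus PANC1 from -0.40 to 1.06 and MV3 minus BE(2)C from -0.22 to 1.24, changing sign without MV3 replicate 2. ES2 minus BE(2)C ran from -0.68 to 0.32 and PANC1 minus BE(2)C from -0.32 to 0.68, changing sign without BE(2)C replicate 1 and replicate 2, respectively.

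The fold between the highest and lowest line mean was 57.3 for miR-146a-5p, 110 with TMM and 162 with the reduced total. It was 61.2, 345 and 285 for miR-146b-5p and 14.6, 82.1 and 78.0 for miR-146b-3p. For miR-155-5p, where HepG2 rests on 4 reads, it was 47092, 5925 and 5243.

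For libraries with the same replicate number, the correlation of their deviations from the line means was between -0.05 and 0.11 over 10 pairs of lines. The highest was that of BE(2)C with HepG2, both made by Novogene. Values this weak gave no sign of a pairing but cannot exclude one. With a replicate block all 60 member contrasts kept their call.

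Depth limits miR-146b-3p, the 3p arms of miR-146a and miR-155, and miR-155-5p in HepG2. The preparation and sequencing are fixed within each line, and no alternative run here removes them from comparisons across preparations.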
